A study of Homo sapiens with 5 samples.

Results

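The comparison described here set HEK293T cells carrying a nuclease-dead Cas9 (dCas9) fused to the catalytic domain of DNMT3A or DNMT3B against cells carrying dCas9 fused to the catalytic domain of DNMT1 or to EGFP. It used 4 of the 5 RNA libraries of the series, chosen by the construct named in each sample's title. These were dCas9-BFP-DNMT3A (1 library) and dCas9-BFP-DNMT3B (1 library) on one side, and dCas9-BFP-DNMT1 (1 library) and dCas9-BFP-EGFP (1 library) on the other. The fifth library, from cells given the pUC19 plasmid, was used only to place the values. It was the paper's transfection control, for which no fusion or guide is named. HEK293T derives from human embryonic kidney and expresses large T antigen of SV40, which raises plasmid expression. All 4 groups received 5 guide RNAs against the promoter of PLAU (uPA), 1 ug of plasmid in total with X-tremeGENE 9, and a sort for blue fluorescent protein (BFP) 48 h later. The fusions were expressed transiently from plasmids under the PGK promoter, and sorting on BFP keeps transfected cells only. No label gives a batch, culture or day for any library.

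DNMT3A and DNMT3B are the de novo DNA methyltransferases, which place methyl groups on CpG sites that carried none. DNMT1 is the maintenance enzyme, which copies methylation onto the new strand after replication. Its isolated catalytic domain, unlike those of DNMT3A and DNMT3B, is known to depend on the N-terminal part of the enzyme for activity, and the fusion holds the catalytic domain without that part. EGFP has no enzyme activity and serves as a control for dCas9 binding. Methylation of CpG-rich promoters is known to go with silencing, while methylation inside gene bodies is common in active genes. The question the comparison addresses is how the transcriptome of cells with a de novo methyltransferase fusion differs from that of cells with the DNMT1 catalytic domain or with no methyltransferase domain.

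The guide sequences are shown because all 4 libraries shared them, so that the libraries differed in the fused domain and not in the guides. The 8 bases next to the PAM, which lie in the seed region of a Cas9 guide, are in capitals.
uPA-T1: gtgagcgttgcgGAAGCACG
uPA-T2: gagccgggcgggAGAGGGAG
uPA-T3: gagtcaaggcgcCCCGTCCC
uPA-T4: gcccggggatctCAGGACCG
uPA-T5: gggacaggtggaCCCTGGCC

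Each guide matched the PLAU promoter region exactly once in GRCh37, and all 5 matches were followed by an NGG PAM. In order along the chromosome, uPA-T1 lay at chr10:75670761-75670780 on the plus strand and uPA-T2 at chr10:75670819-75670838 on the plus strand, both upstream of the start of the canonical PLAU transcript at base 75670890. uPA-T5 at chr10:75670920-75670939 and uPA-T4 at chr10:75670987-75671006 lay on the minus strand, and uPA-T3 at chr10:75671093-75671112 on the plus strand, all downstream of that start. uPA-T5 overlapped an exon of 3 annotated PLAU transcripts, and the other 4 lay in PLAU introns or upstream of the canonical start. All 5 also overlapped an exon of C10orf55, annotated at the same locus.

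The targeted gene could not be tested, because it gave too few reads. PLAU, the urokinase plasminogen activator, had 6 reads in the DNMT3A library, 1 in the DNMT3B library, 6 in the DNMT1 library and 4 in the EGFP library. It had 106 reads in pUC19, or 2.48 TPM against at most 0.181 TPM in the 4 fusion libraries. The fused domains served as a check of the labels. Reads on the DNMT3A row reached 16745 TPM in the DNMT3A library and at most 21.3 TPM in the other 3 fusion libraries. Reads on the DNMT3B row reached 33141 TPM in the DNMT3B library, and those on the DNMT1 row 14582 TPM in the DNMT1 library. These rows count plasmid transcripts together with the cells' own, so each of the 3 methyltransferase libraries carried the construct its label names, and the rows give no level of the cellular gene there.

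The 4 libraries held 26250000 to 29430000 uniquely mapped reads, so that 3 reads correspond to 0.102 to 0.114 RPM. Markers of the HEK293 line summed to 774 to 951 TPM over the 4 libraries and to 1247 TPM in pUC19, which stood apart, with IRS4 at 396 TPM there against 66.3 to 76.5 TPM in the 4. Leukocyte markers summed to 10.2 to 15.2 TPM and endothelial markers to 0.946 to 1.32 TPM over all 5. Fibroblast markers summed to 4.13 and 5.98 TPM with DNMT3A and DNMT3B against 8.46 and 7.27 TPM with DNMT1 and EGFP, and 8.28 TPM in pUC19. The collagen COL1A1 made up most of each of these fibroblast sums. The EGFP library stood apart in read coverage. At 10 to 20 reads per kilobase the mean part of a transcript covered was 42.1% in the EGFP library and 41.7% in pUC19, against 46.8% to 47.2% in the other 3. The part of this difference in the results was not tested.

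Of 15332 genes tested, 1058 (6.90%) were higher and 636 (4.15%) lower with DNMT3A and DNMT3B than with DNMT1 and EGFP, 1694 in all (11.0%; edgeR's quasi-likelihood test, adjusted p under 0.05). With upper-quartile scaling in place of TMM the split was 796 higher and 893 lower. A change of at least 2-fold was reached by 357 called genes (2.33%), of which 220 were higher (1.43%) and 137 lower (0.894%). The DNMT3A and DNMT3B libraries were the closest pair, with 246 genes (1.60%) 2-fold apart on the log2(TPM + 0.1) scale. The DNMT1 and EGFP libraries had 535 such genes (3.49%), and the 4 pairs across the comparison had 938 to 1044. The median absolute log2 ratio was 0.14 between DNMT3A and DNMT3B, 0.25 between DNMT1 and EGFP, and 0.29 to 0.31 across the comparison.

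The constructs are not replicates of one another, so the p-values measure a difference against the spread within the 2 pairs of unlike constructs. Leaving out a library therefore moved the counts far: 18 genes were called without the DNMT3A library and 53 without the DNMT3B library, where the spread came from the DNMT1 and EGFP pair alone, and 3536 without the DNMT1 library and 3850 without the EGFP library, where it came from the closer DNMT3A and DNMT3B pair. The counts for gene lists given next carry the same dependence: of 220 named genes that were called, 209 were no longer called without DNMT3A and 199 without DNMT3B.

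**Figure D1:**
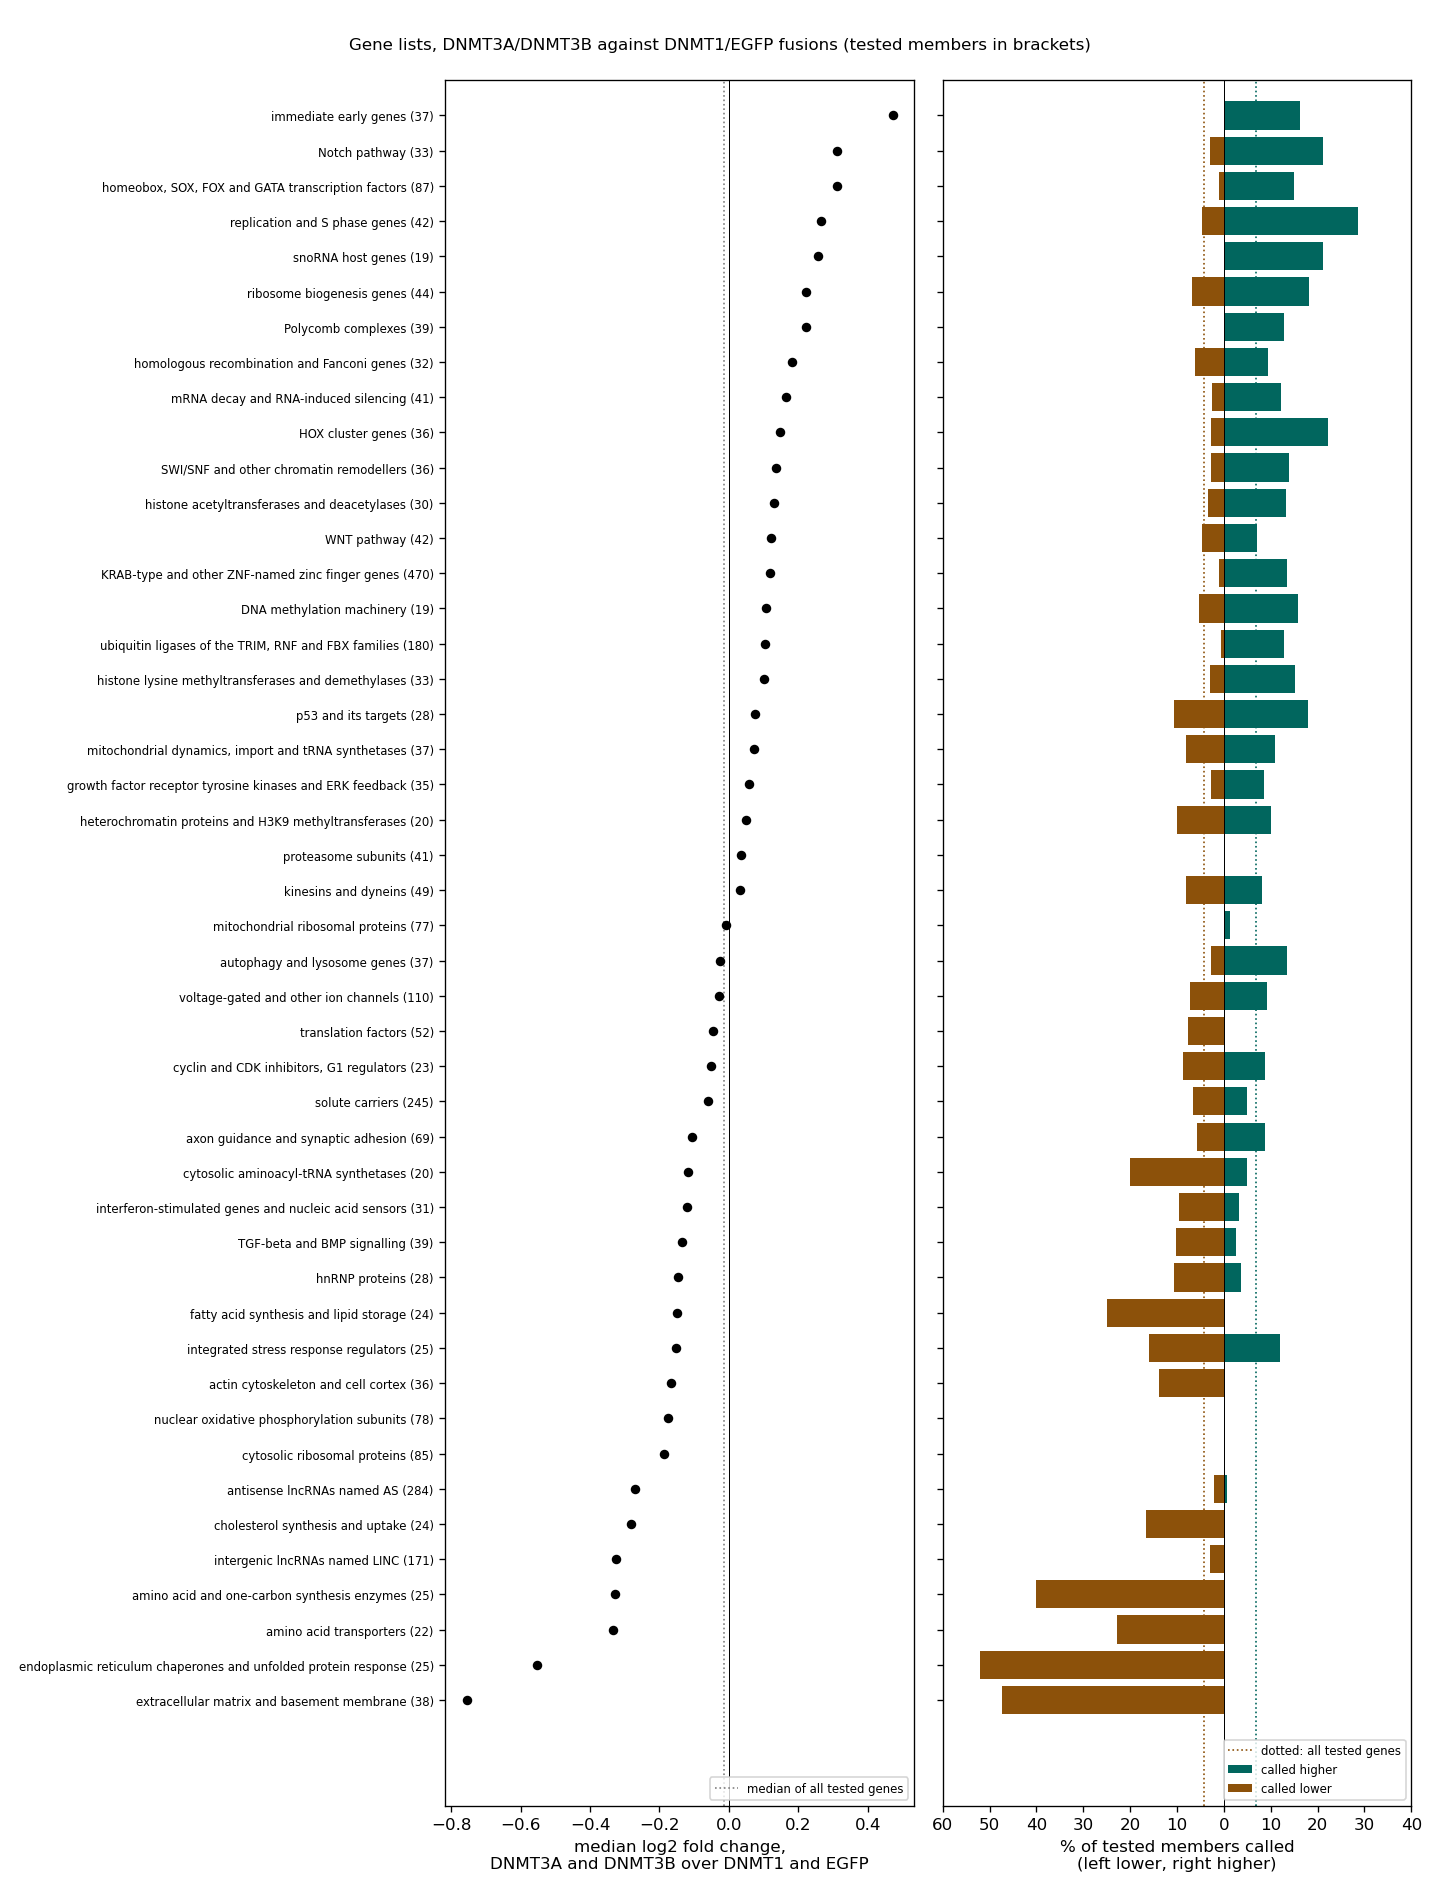
Gene lists with at least 15 tested members and at least 4 called ones, with the ribosomal protein, oxidative phosphorylation and proteasome lists added. The left panel gives the median log2 fold change of each list and the dotted line that of all genes tested (-0.01), and the right panel the percentage of members called lower (to the left) and higher (to the right) with dotted lines at 4.15% and 6.90% for all genes. Extracellular matrix and endoplasmic reticulum (ER) lists lie lowest, and immediate early and Notch lists highest.

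In what follows, levels are TPM, the read count per transcript length scaled to the same sum in every library, and are given for the DNMT3A and DNMT3B libraries in that order against the DNMT1 and EGFP libraries in that order. A value alone in parentheses after a gene is its fitted log2 fold change, positive where DNMT3A and DNMT3B were higher, and medians are of log2 fold changes over the tested members. Counts of members that rose or fell are to be read beside the 6.90% and 4.15% of all genes. These shares varied with gene class, and 13.8% were called higher in the highest of 5 groups by GC content. In bulk RNA a lower level per cell and fewer cells with a transcript cannot be told apart.

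On the lower side, the list that stood lowest was that of extracellular matrix and basement membrane genes. Basement membranes are sheets of type IV collagen and laminin, joined by nidogens and heparan sulfate proteoglycans. Of 38 tested members, 18 fell, none rose, and 37 had a negative log2 fold change, with a median of -0.75 beside -0.01 over all genes. COL4A2, a chain of type IV collagen, fell to 21.5 and 22.1 TPM against 51.6 and 43.3 TPM (log2 fold change -1.18 ± 0.15 (SE), adjusted p = 0.00475). NID2, a nidogen, measured 14.3 and 13.6 TPM against 27.1 and 27.2 TPM (log2 fold change -1.02 ± 0.14 (SE), adjusted p = 0.00539). COL2A1, the fibrillar collagen known from cartilage, measured 13.4 and 12.4 TPM against 27.5 and 25.1 TPM (log2 fold change -1.08 ± 0.15 (SE), adjusted p = 0.00578). In each of these genes both DNMT3A and DNMT3B libraries lay below both others by a clear gap, and the pUC19 library, at 38.2, 26.2 and 22.4 TPM, lay near the DNMT1 and EGFP libraries.

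The fall extended over several classes of matrix protein. Type IV collagens COL4A1 (-0.93), COL4A5 (-0.88) and COL4A6 (-1.20) were called with COL4A2; COL4A1 and COL4A2 lie side by side on chromosome 13 (chr13:110801310-110959504 and chr13:110958159-111165556, GRCh37) and are transcribed in opposite directions. Laminin chains LAMA1 (-0.85), LAMA4 (-1.05), LAMB1 (-0.80), LAMB2 (-0.84) and LAMC1 (-0.46) fell as well. So did the nidogen NID1 (-0.78) and the proteoglycan AGRN (-0.85), the microfibril protein FBN2 (-1.24) and fibronectin FN1 (-1.05). COL5A1 (-1.13) and COL18A1 (-0.90) completed the group with COL6A3 (-1.78), which was near the limit of detection at 0.0667 and 0.0670 TPM against 0.198 and 0.251 TPM. The most abundant was NID1, at 71.3 and 82.2 TPM against 130.4 and 123 TPM. The median of the list was -0.90 without the EGFP library, -0.80 without DNMT3B, -0.64 without DNMT3A and -0.55 without DNMT1. Its members were long, with a median length of 6635 bases, and long genes were called lower more often (given with the gene classes). With a per-library offset for GC content and length, 23 members were called lower and 1 higher, with a median of -0.81. The summed fibroblast markers, given above, were lower on the same side. Most of each sum came from COL1A1, itself a collagen, at 3.87 and 5.69 TPM against 7.93 and 6.17 TPM. COL1A2 had 0 reads in every library, and DCN, LUM, PDGFRB and THY1 each had at most 0.502 TPM. The part of the fibroblast markers in this result was not tested.

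Genes for cell attachment had called members on the lower side only. Among 35 integrins and cadherins with their partners, 3 (8.57%) fell and none rose (median -0.27). These were the integrin chains ITGA7 (-0.83) and ITGB1 (-0.50), and CTNNA1 (-0.58), the alpha-catenin that ties cadherins to actin. Of 36 genes of the actin cytoskeleton and cell cortex, 5 (13.9%) fell and none rose (median -0.17). Among them were FLNA (-1.07), a filamin that cross-links actin, TLN1 (-0.81), which links integrins to actin, SPTAN1 (-0.88), a spectrin, and AHNAK (-1.45), a very large scaffold protein. AHNAK, TLN1 and SPTAN1 are long, at 18836, 8434 and 7907 bases, and long genes were called lower more often (given with the gene classes).

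ER chaperones and genes of the unfolded protein response (UPR) held the largest share of lower members among the lists of at least 15 tested genes. The ER folds secreted and membrane proteins, and the UPR raises its chaperones when unfolded proteins accumulate. Of 25 members, 13 fell and none rose, with a median log2 fold change of -0.55 and 23 negative values. EDEM1, which takes misfolded glycoproteins out of the folding cycle, measured 14.0 and 15.9 TPM against 26.8 and 27.7 TPM (log2 fold change -0.92 ± 0.14 (SE), adjusted p = 0.00729). PDIA4, a protein disulfide isomerase, measured 219 and 217 TPM against 339.5 and 368 TPM (log2 fold change -0.75 ± 0.11 (SE), adjusted p = 0.00747). CREB3L2, a membrane-bound transcription factor of the secretory pathway, measured 34.6 and 38.6 TPM against 55.6 and 87.6 TPM (log2 fold change -1.01 ± 0.17 (SE), adjusted p = 0.00935). DNMT3A and DNMT3B libraries were within a narrow range for each, and the EGFP library was the highest of the 4 in all 3 genes.

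The chaperones themselves were among the most abundant transcripts that fell. HSPA5 (BiP), the main ER Hsp70, measured 285 and 248 TPM against 422 and 439.8 TPM, and XBP1, whose spliced form is a UPR transcription factor, 259.6 and 243 TPM against 340.1 and 482 TPM. CALR and CANX, the lectin chaperones, changed by -0.58 and -0.79 on the log2 scale, and HSP90B1, the ER Hsp90, by -0.56. P4HB (-0.63) and PDIA6 (-0.55) are further disulfide isomerases, HYOU1 (-0.65) a large chaperone, SEL1L (-0.60) a part of the ER degradation machinery, and ATF6 (-0.46) a UPR sensor. The pUC19 library did not lie on one side for this group: it measured 296 TPM for HSPA5 and 514 TPM for P4HB, near the DNMT3A and DNMT3B libraries, but 819 TPM for CALR, near the other side. The list median was -0.59 to -0.52 when each library was left out in turn.

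**Figure D2:**
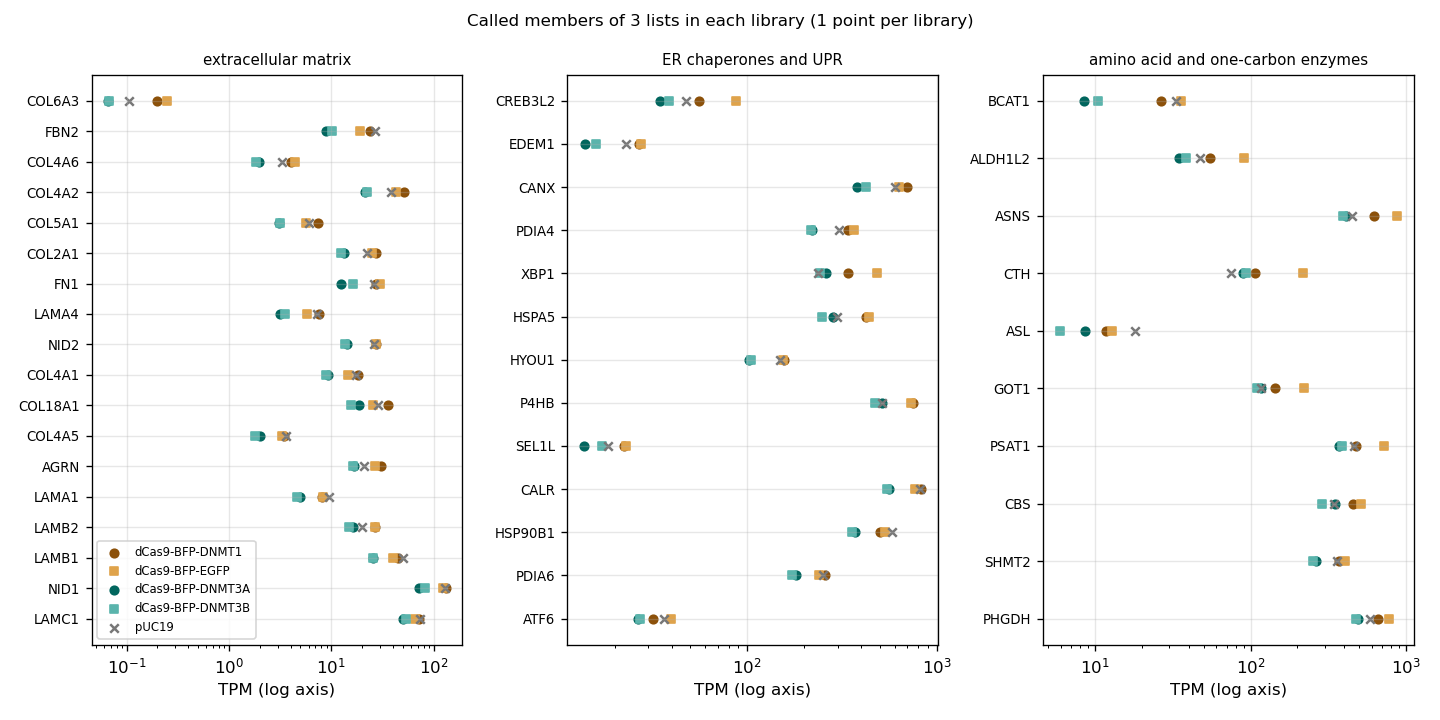
TPM of the called members of 3 lists in each library, 1 point per library on a log axis, with green for DNMT3A and DNMT3B, brown and ochre for DNMT1 and EGFP, and a grey cross for pUC19. The green points lie to the left of the brown and ochre ones for every gene shown, while the cross lies near either side.

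Genes for making and importing amino acids were the next group. Of 25 enzymes of amino acid and one-carbon synthesis, 10 fell and none rose (median -0.33), and of 22 amino acid transporters 5 fell and none rose (median -0.33). Without DNMT1 the enzyme median was -0.52 and that of the transporters -0.48, and without EGFP they were -0.31 and -0.19. BCAT1, the cytosolic branched-chain aminotransferase (chr12:24962958-25102035, GRCh37), measured 8.49 and 10.4 TPM against 26.6 and 35.6 TPM (log2 fold change -1.77 ± 0.16 (SE), adjusted p = 0.00235). ASNS, asparagine synthetase, measured 412 and 391 TPM against 627 and 871 TPM (log2 fold change -0.94 ± 0.14 (SE), adjusted p = 0.00747). ALDH1L2, a mitochondrial folate enzyme, measured 34.6 and 38.2 TPM against 54.9 and 90.6 TPM (log2 fold change -1.04 ± 0.18 (SE), adjusted p = 0.0105). For ASNS and ALDH1L2 the EGFP library was well above the DNMT1 library, so the pair on that side was itself spread.

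The serine synthesis enzymes PHGDH (-0.62) and PSAT1 (-0.71) fell, with SHMT2 (-0.65), which moves the one-carbon unit from serine to folate in mitochondria. The transsulfuration enzymes CBS (-0.65) and CTH (-0.86), the aspartate aminotransferase GOT1 (-0.72) and the urea cycle enzyme ASL (-0.81) made up the rest. SLC7A3, a cationic amino acid transporter, had the largest change among the transporters, at 12.2 and 11.9 TPM against 29.0 and 36.2 TPM (log2 fold change -1.48 ± 0.16 (SE), adjusted p = 0.00235). SLC7A2 (-0.89) carries the same class of amino acids. SLC7A8 (-0.64) and SLC38A1 (-0.56) import neutral ones, and SLC7A11 (-0.83) exchanges cystine for glutamate. Of 20 cytosolic aminoacyl-tRNA synthetases, which load amino acids onto tRNA, 4 fell: WARS (-0.76), EPRS (-0.70), AARS (-0.66) and QARS (-0.65). FARSA rose (0.46).

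The regulators of the integrated stress response, in which ATF4 drives many of these enzymes, moved in both directions. Of 25 members, 4 fell and 3 rose (median -0.15). DDIT3 (CHOP), a pro-apoptotic transcription factor, measured 54.4 and 49.1 TPM against 78.7 and 113 TPM, and CHAC1, which degrades glutathione, 60.0 and 75.8 TPM against 96.1 and 141 TPM. GDF15, a secreted stress cytokine, fell by 1.66 on the log2 scale from a low level, and ATF5 changed by -0.78. In contrast SESN2, a leucine sensor upstream of mTORC1, rose to 589 and 589 TPM against 254 and 369.5 TPM (log2 fold change 0.87 ± 0.15 (SE), adjusted p = 0.0102). DDIT4, an mTORC1 inhibitor, measured 317 and 323 TPM against 180.4 and 203 TPM (log2 fold change 0.69 ± 0.11 (SE), adjusted p = 0.00888), and ATF3 151 and 148 TPM against 87.2 and 116 TPM (log2 fold change 0.51 ± 0.13 (SE), adjusted p = 0.0372). The pUC19 library lay below all 4 fusion libraries for DDIT3, CHAC1, GDF15, ATF3 and SESN2, with 29.9 TPM of DDIT3, 42.0 TPM of CHAC1 and 139.8 TPM of SESN2.

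Lipid synthesis genes were on the lower side. Among 24 cholesterol genes 4 fell and none rose (median -0.28): STARD4 (-0.95), a sterol carrier, CYP51A1 (-0.65) and LSS (-0.55), enzymes of the pathway after squalene, and SREBF2 (-0.47), its transcription factor. Among 24 genes of fatty acid synthesis and lipid storage 6 fell and none rose (median -0.15). The cholesterol median was -0.18 without DNMT1 and the fatty acid median -0.23 without EGFP. ACLY, which makes cytosolic acetyl-CoA, measured 214 and 229 TPM against 335 and 376 TPM (log2 fold change -0.73 ± 0.12 (SE), adjusted p = 0.00797), and SCD, the stearoyl-CoA desaturase, 291 and 297 TPM against 516 and 434 TPM (log2 fold change -0.76 ± 0.15 (SE), adjusted p = 0.0162). ACACA (-0.55), ACSL1 (-0.54) and ACSL3 (-0.59) fell as well. G0S2, an inhibitor of the lipase ATGL, measured 1.61 and 1.91 TPM against 4.96 and 15.03 TPM (log2 fold change -2.53 ± 0.49 (SE), adjusted p = 0.0157), so that the EGFP library stood well above the DNMT1 library.

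On the higher side, replication and S phase genes had the largest share of members called among the lists of at least 15 tested genes. These genes load and fire replication origins, copy DNA and pack it into chromatin. Of 42 members 12 rose and 2 fell, with a median of 0.26 and 34 positive values. E2F8, an E2F family transcription factor of S phase, measured 29.3 and 32.3 TPM against 13.4 and 15.1 TPM (log2 fold change 1.06 ± 0.14 (SE), adjusted p = 0.00487). FEN1, the flap endonuclease that trims Okazaki fragments, measured 292 and 259.8 TPM against 119 and 169.9 TPM (log2 fold change 0.89 ± 0.15 (SE), adjusted p = 0.00936), and MCM10, which helps to fire origins, 134 and 128 TPM against 77.7 and 90.8 TPM (log2 fold change 0.59 ± 0.12 (SE), adjusted p = 0.0162). Both DNMT3A and DNMT3B libraries lay above both others in these genes.

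PCNA, the sliding clamp, rose to 407 and 418 TPM against 281 and 313 TPM (log2 fold change 0.42 ± 0.11 (SE), adjusted p = 0.0435). The other called members were CDC6 (0.46) and GINS3 (0.66) for origins, CCNE2 (0.74) and E2F2 (0.81) for entry into S phase, RPA2 (0.54) for single strands, CHAF1A (0.51) and CHAF1B (0.55) for histone deposition, and SLBP (0.51) for histone mRNA. RFC1, the large subunit of the clamp loader, was among those that fell (-0.57). Of 42 G2 and mitosis genes 2 fell, TOP2A (-0.52), which untangles DNA, and CKS2 (-0.70), a CDK subunit, and none rose (median -0.05). Among 23 cyclins and G1 regulators CCND1, cyclin D1, measured 64.4 and 68.5 TPM against 34.7 and 34.9 TPM (log2 fold change 0.88 ± 0.12 (SE), adjusted p = 0.00621) and CDKN2D, a CDK4/6 inhibitor, changed by 0.89. CDK6, a partner of cyclin D1, measured 13.0 and 18.4 TPM against 26.3 and 31.6 TPM (log2 fold change -0.93 ± 0.16 (SE), adjusted p = 0.0108), and CCNG2 changed by -0.98. The S phase list kept a median of 0.25 to 0.29 with each library left out, but with upper-quartile scaling 7 members rose.

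Target genes of the Notch pathway were among the genes that rose. In this pathway a ligand on one cell frees the intracellular part of the receptor on its neighbour, which then turns on HES and HEY repressors with MAML coactivators. Of 33 members 7 rose and 1 fell (median 0.31). NRARP, a target that limits the pathway, measured 71.9 and 69.5 TPM against 28.6 and 35.7 TPM (log2 fold change 1.09 ± 0.14 (SE), adjusted p = 0.00468). HEY1 measured 251 and 199 TPM against 96.7 and 133 TPM (log2 fold change 0.92 ± 0.16 (SE), adjusted p = 0.0104), and HES5 (chr1:2460184-2461702, GRCh37) 4.94 and 4.11 TPM against 0.735 and 1.14 TPM (log2 fold change 2.22 ± 0.37 (SE), adjusted p = 0.00926). HES5 was a low transcript in all libraries, whereas HEY1 was well expressed. HES6 (0.78), LFNG (1.32), which glycosylates Notch receptors, NUMBL (0.90), known as an inhibitor, and MAML1 (0.57) rose too. MAML3, another coactivator, fell to 1.27 and 1.55 TPM against 2.70 and 2.80 TPM (log2 fold change -1.02 ± 0.22 (SE), adjusted p = 0.0209). The pUC19 library lay between the sides for NRARP, HEY1 and HES5, at 42.1, 156 and 1.81 TPM. The Notch list median was 0.51 without DNMT1 and 0.20 without EGFP.

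Immediate early genes had the highest list median, 0.47, with 32 of 37 members above 0. They are transcribed within minutes of a signal without new protein synthesis. The test called 6 of them higher and none lower. DUSP1, a phosphatase of MAP kinases, measured 58.2 and 51.6 TPM against 23.8 and 24.4 TPM (log2 fold change 1.13 ± 0.14 (SE), adjusted p = 0.00475), and BTG2, an antiproliferative gene, 21.4 and 22.6 TPM against 13.1 and 11.8 TPM (log2 fold change 0.76 ± 0.16 (SE), adjusted p = 0.0217). FOSL1, a subunit of AP-1, measured 5.32 and 6.55 TPM against 2.66 and 2.02 TPM (log2 fold change 1.27 ± 0.30 (SE), adjusted p = 0.0288). FOSL2 (1.08), DUSP5 (1.08) and ATF3 rose as well. The median level over members with a read was 6.53 TPM. FOSL1 and DUSP5 averaged 4.14 and 4.235 TPM over the fusion libraries, BTG2 17.2 TPM, and DUSP1 and ATF3 39.5 and 126 TPM. The list median was 0.40 to 0.62 with each library left out.

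Of 18 NF-kB and inflammatory genes 3 rose and none fell (median 0.23, or 0.42 without DNMT1). RELA, the p65 subunit, measured 143 and 151 TPM against 94.5 and 93.5 TPM (log2 fold change 0.59 ± 0.12 (SE), adjusted p = 0.0180). TNFAIP3 (A20) and NFKBIE, both NF-kB targets that inhibit the pathway, measured 10.7 and 10.2 TPM against 4.08 and 4.14 TPM and 14.8 and 11.6 TPM against 6.13 and 6.93 TPM, respectively. In all 3 the pUC19 library, at 83.5, 4.43 and 7.29 TPM, was within 1 TPM of the DNMT1 and EGFP range or below it. Of 31 interferon-stimulated genes and nucleic acid sensors, IFIT5 (0.86) rose, and IFIT1 (-1.03), IFI44L (-1.71) and ADAR (-0.66) fell. IFI44L was near the limit of detection, at 0.187 and 0.151 TPM against 0.590 and 0.481 TPM. IFIT1 was low, at 1.47 and 1.36 TPM against 3.07 and 2.49 TPM. The median of this interferon list was -0.12, or -0.03 without DNMT1, -0.05 without DNMT3A and -0.07 without DNMT3B.

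**Figure D3:**
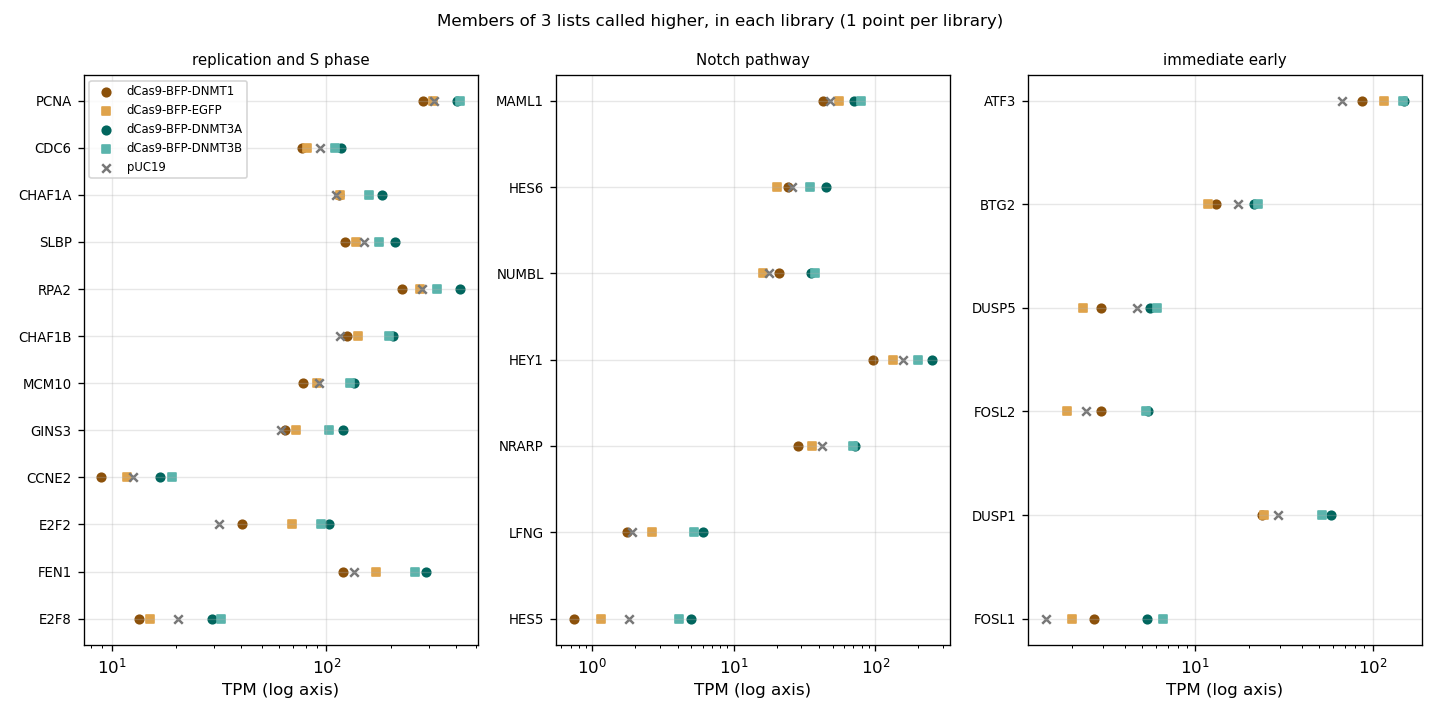
TPM of the members called higher in 3 lists in each library, 1 point per library on a log axis, with green for DNMT3A and DNMT3B, brown and ochre for DNMT1 and EGFP, and a grey cross for pUC19. The green points lie to the right of the brown and ochre ones for every gene shown.

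Transcription factors rose more often than they fell. Among 87 homeobox, SOX, FOX, GATA and related developmental factors outside the HOX clusters 13 rose and 1 fell (median 0.31). FOXA3, a pioneer factor of endoderm (chr19:46367247-46377055, GRCh37), measured 6.75 and 9.59 TPM against 2.37 and 2.21 TPM (log2 fold change 1.77 ± 0.27 (SE), adjusted p = 0.00750), and GATA5 8.71 and 9.14 TPM against 3.36 and 2.73 TPM (log2 fold change 1.49 ± 0.23 (SE), adjusted p = 0.00750). FOXD2 (1.05), LHX2 (0.86), TBX2 (0.81), GATA2 (0.65), GATA6 (0.63) and PAX3 (0.66) were among the rest. Of 36 HOX cluster genes, which pattern the body axis, 8 rose and 1 fell (median 0.15), or 4 and 2 with upper-quartile scaling. The called HOX genes came from all 4 clusters: HOXA3 (0.56) and HOXA4 (0.77), HOXB2 (0.66) and HOXB4 (0.71), HOXC11 (0.73) and HOXC13 (0.57), HOXD11 (0.68) and HOXD13 (0.43). HOXD4 lay in the opposite direction at 3.93 and 3.56 TPM against 7.47 and 7.50 TPM (log2 fold change -1.05 ± 0.26 (SE), adjusted p = 0.0347).

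ZNF-named zinc finger genes were the largest list. Many encode KRAB repressors of transposons. Of 470 members 63 rose and 5 fell (median 0.12). The median of this ZNF list depended on the library, at 0.05 without DNMT1 or without DNMT3A, 0.21 without DNMT3B and 0.25 without EGFP. Without DNMT1, 85 members were called higher and 26 lower. ZNF324 measured 39.6 and 34.4 TPM against 11.6 and 11.2 TPM (log2 fold change 1.64 ± 0.15 (SE), adjusted p = 0.00235) and ZNF707 46.2 and 42.8 TPM against 15.7 and 16.4 TPM (log2 fold change 1.42 ± 0.14 (SE), adjusted p = 0.00235). ZNF704 (-0.86), ZNF260 (-0.80) and ZNF664 (-0.78) fell. Ubiquitin ligases named TRIM, RNF or FBX also had more members higher, with 23 of 180 higher and 1 lower (median 0.10, or 0.19 without EGFP). TRIM47 (chr17:73870245-73874662, GRCh37) measured 17.4 and 18.2 TPM against 4.77 and 3.36 TPM (log2 fold change 2.06 ± 0.23 (SE), adjusted p = 0.00350), TRIM46 changed by 1.76, and TRIM11 measured 213 and 229.7 TPM against 72.1 and 94.8 TPM (log2 fold change 1.36 ± 0.13 (SE), adjusted p = 0.00235). The member that fell was RNF130 (-0.55).

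Chromatin regulators had more members higher than lower in each of 4 classes, although with upper-quartile scaling 4 remodellers were higher and 4 lower, and 2 Polycomb members were higher. Polycomb complexes, which silence developmental genes through histone marks, had 5 of 39 higher and none lower (median 0.22). PHC2, a subunit of PRC1, measured 119 and 137 TPM against 64.4 and 61.2 TPM (log2 fold change 0.97 ± 0.13 (SE), adjusted p = 0.00532), and SUZ12, a core subunit of PRC2, 45.6 and 43.8 TPM against 30.7 and 29.3 TPM (log2 fold change 0.52 ± 0.13 (SE), adjusted p = 0.0395). Among 30 histone acetyltransferases and deacetylases 4 rose and 1 fell: SIRT7 (1.08), HDAC7 (0.83), SIRT6 (0.78) and the acetyltransferase CREBBP (0.55) against the tubulin deacetylase HDAC6 (-0.73). Among 33 histone lysine methyltransferases and demethylases 5 rose and 1 fell. KDM2A, an H3K36 demethylase that binds unmethylated CpG islands, measured 47.0 and 50.9 TPM against 23.7 and 26.2 TPM (log2 fold change 0.92 ± 0.12 (SE), adjusted p = 0.00484), and KMT2B, an H3K4 methyltransferase with the same kind of CXXC domain, 32.2 and 42.8 TPM against 19.6 and 19.2 TPM (log2 fold change 0.89 ± 0.15 (SE), adjusted p = 0.0104). KDM1B, an H3K4 demethylase, measured 7.27 and 8.55 TPM against 11.7 and 13.1 TPM (log2 fold change -0.71 ± 0.16 (SE), adjusted p = 0.0280). Of 36 chromatin remodellers 5 rose and 1 fell, with INO80 at 51.2 and 51.1 TPM against 21.3 and 28.2 TPM (log2 fold change 1.00 ± 0.13 (SE), adjusted p = 0.00526) and BAZ1B at 231 and 241 TPM against 118 and 153 TPM (log2 fold change 0.75 ± 0.13 (SE), adjusted p = 0.00955).

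Heterochromatin proteins did not move together. CBX5 (HP1 alpha), which binds methylated H3K9, measured 28.2 and 32.6 TPM against 69.6 and 81.2 TPM (log2 fold change -1.36 ± 0.12 (SE), adjusted p = 0.00235), and LBR, the lamin B receptor, changed by -0.45. SETDB1 (0.45), an H3K9 methyltransferase, and DAXX (0.54), a histone chaperone, rose. Of the DNA methylation machinery other than the 3 genes carried by the plasmids, MBD1, a methyl-CpG binding protein, was the 1 member called, at 62.5 and 72.0 TPM against 42.3 and 45.4 TPM (log2 fold change 0.56 ± 0.13 (SE), adjusted p = 0.0284).

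Ribosome biogenesis genes, which process and assemble ribosomal RNA in the nucleolus, had 8 of 44 members higher and 3 lower (median 0.22). NOP2, an rRNA methyltransferase, measured 188 and 198 TPM against 97.0 and 100.2 TPM (log2 fold change 0.92 ± 0.12 (SE), adjusted p = 0.00468). BYSL (0.69), UTP14A (0.73), RRN3 (0.58), which brings RNA polymerase I to its promoter, NOB1 (0.50), PWP2 (0.48), WDR43 (0.51) and WDR75 (0.46) rose too. UTP20 (-0.81), HEATR1 (-0.49) and NOLC1 (-0.56) fell. For these genes pUC19 lay further out than all 4 fusion libraries in NOLC1, UTP20 and HEATR1 (451, 26.9 and 86.2 TPM). Among 19 snoRNA host genes 4 rose and none fell (median 0.26), led by SNHG7 at 127 and 102 TPM against 62.2 and 61.7 TPM (log2 fold change 0.83 ± 0.15 (SE), adjusted p = 0.0118) and SNHG1 at 613 and 475 TPM against 263 and 330.4 TPM (log2 fold change 0.83 ± 0.15 (SE), adjusted p = 0.0123). The snoRNA host median depended on the library, at 0.05 without DNMT3A and 0.41 without DNMT3B.

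Among 26 NRF2 targets, genes of the response to oxidative stress, 2 rose (7.69%) and 1 fell (3.85%), shares near the 6.90% and 4.15% of all genes. Their median was -0.21, or -0.09 without DNMT1. HMOX1, heme oxygenase 1, measured 734 and 1156 TPM against 362 and 401 TPM (log2 fold change 1.25 ± 0.19 (SE), adjusted p = 0.00729), with 58.5 TPM in pUC19, and SRXN1, sulfiredoxin, 55.1 and 62.4 TPM against 30.5 and 33.3 TPM (log2 fold change 0.83 ± 0.14 (SE), adjusted p = 0.00888). SLC7A11, given above with the transporters, fell. Of 28 genes of p53 and its targets 5 rose and 3 fell: PLK3 (1.48), SESN2, PPM1D (0.77), BTG2 and AEN (0.69) against GDF15, SPATA18 (-0.92) and TP53INP1 (-0.89). BCL2L1 (BCL-xL), an inhibitor of apoptosis, was the 1 called gene of 17 in the BCL2 family, at 33.9 and 26.6 TPM against 11.3 and 7.60 TPM (log2 fold change 1.61 ± 0.23 (SE), adjusted p = 0.00687) with 25.7 TPM in pUC19. Among 37 autophagy and lysosome genes 5 rose and 1 fell, with ATG5 (0.86), ATG2A (0.72) and ATG14 (0.70) higher and MAP1LC3B (-0.44) lower.

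Several large housekeeping groups had no called member. None of 85 cytosolic ribosomal proteins and none of 78 nuclear subunits of oxidative phosphorylation passed the test, although 81 and 74 of them were below 0, with medians of -0.19 and -0.18. RPS2, the member with the highest level in the first list, measured 11903 and 11606 TPM against 14511 and 13357 TPM (log2 fold change -0.30 ± 0.19 (SE), adjusted p = 0.325). Without the EGFP library 42 ribosomal proteins and 26 oxidative phosphorylation subunits were called lower, at medians of -0.31 and -0.27. Without DNMT1 the medians were -0.08 and -0.11, with 60 and 55 members below 0. With the GC and length offset they were -0.07 and -0.09, with 57 and 54 below 0, so that the size of this shift depended on the library and on the offset. None of 41 proteasome subunits was called (median 0.03), and 1 of 77 mitochondrial ribosomal proteins was, MRPS30 (0.66). Cytosolic heat shock chaperones, with none of 24 called and a median of -0.16, depended most on 1 library among these groups: without DNMT1 8 rose and 1 fell (median 0.24), and without EGFP 15 fell and none rose (median -0.44).

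Gene families with members that are known to be silenced by promoter methylation in somatic cells had no called member either. This held for 9 germline genes, 10 MAGE genes and 12 clustered protocadherins that passed the filter on low counts, out of 23, 28 and 48 with a read in any library. Of 17 genes on the imprinted list 1 was called higher, TP73 (0.91). The median over members with a read was 0.210 TPM for the germline genes, 0.167 TPM for the MAGE genes and 0.0602 TPM for the protocadherins. Most therefore had few reads and were not tested. The counts describe members expressed enough to pass the filter, and they cannot describe silent ones. Among the tested ones, MAGED1 measured 346 and 355 TPM against 424 and 453 TPM (log2 fold change -0.38 ± 0.11 (SE), adjusted p = 0.0620) and MAGEF1 25.9 and 28.9 TPM against 16.1 and 19.5 TPM (log2 fold change 0.57 ± 0.16 (SE), adjusted p = 0.0528), and neither passed the test.

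The largest single changes included genes of several kinds. Beside the plasmid-borne DNMT rows, the highest log2 fold changes among genes with a mean of at least 5 TPM were those of ARRDC2, NPIPA1, CNST, PKD1P1, TRIM47, RASSF1, FOXA3 and TRIM46. ARRDC2, an alpha-arrestin (chr19:18111941-18124911, GRCh37), measured 44.8 and 48.0 TPM against 8.30 and 11.6 TPM (log2 fold change 2.17 ± 0.16 (SE), adjusted p = 0.00128). RASSF1, a Ras-association tumour suppressor with a CpG island promoter (chr3:50367213-50378411, GRCh37), measured 174 and 151 TPM against 35.6 and 54.2 TPM (log2 fold change 1.81 ± 0.17 (SE), adjusted p = 0.00235). ARRDC2, RASSF1 and BCAT1 were called when any 1 of the 4 libraries was left out. CNST measured 10.2 and 6.82 TPM against 2.61 and 1.17 TPM (log2 fold change 2.10 ± 0.36 (SE), adjusted p = 0.0104), but pUC19 was above all 4 libraries at 11.1 TPM. NPIPA1 (2.16) belongs to a multicopy family and PKD1P1 (2.08) is a pseudogene of PKD1 (1.40), so reads may be split between near-identical copies and these values are uncertain.

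The largest falls beside DNMT1 were in G0S2, TERC, BCAT1, IGFBP5, SLC7A3, ELSPBP1, AHNAK, SCARNA12 and CBX5. IGFBP5, a binding protein of insulin-like growth factors (chr2:217536828-217560272, GRCh37), measured 4.95 and 5.34 TPM against 16.0 and 12.0 TPM (log2 fold change -1.51 ± 0.20 (SE), adjusted p = 0.00487), with 30.5 TPM in pUC19. TERC, the RNA template of telomerase, measured 2.26 and 3.35 TPM against 7.70 and 11.2 TPM (log2 fold change -1.80 ± 0.40 (SE), adjusted p = 0.0245), and SCARNA12, a small Cajal body RNA, 11.9 and 11.2 TPM against 29.6 and 29.2 TPM (log2 fold change -1.40 ± 0.29 (SE), adjusted p = 0.0191). Neither RNA is a typical poly(A) transcript, and the libraries were selected on poly(A). ELSPBP1 measured 5.32 and 4.45 TPM against 7.20 and 19.6 TPM (log2 fold change -1.47 ± 0.40 (SE), adjusted p = 0.0453), with the EGFP library far above the other 3, and was not called without it.

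Long non-coding RNAs had a negative median but were not called lower more often than the 4.15% of all genes. Of 840 tested, 7 (0.833%) rose and 26 (3.10%) fell, with a median of -0.32, against 1032 (7.41%) and 599 (4.30%) of 13930 protein-coding genes, with a median of 0.00. Among 171 LINC-named genes 5 (2.92%) fell and none rose (median -0.32). Among 284 antisense RNAs named AS 6 (2.11%) fell and 2 (0.704%) rose (median -0.27). Both shares called lower were under that of all genes. The lowest of 5 equal groups of tested genes by level also had a negative median, -0.24, with 39 (1.27%) higher and 76 (2.48%) lower of 3067. LINC00657 (NORAD) changed by -0.58 and OIP5-AS1 by -0.68; strand was not stated for the counting, so reads of an antisense gene and its partner cannot be told apart.

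**Figure D4:**
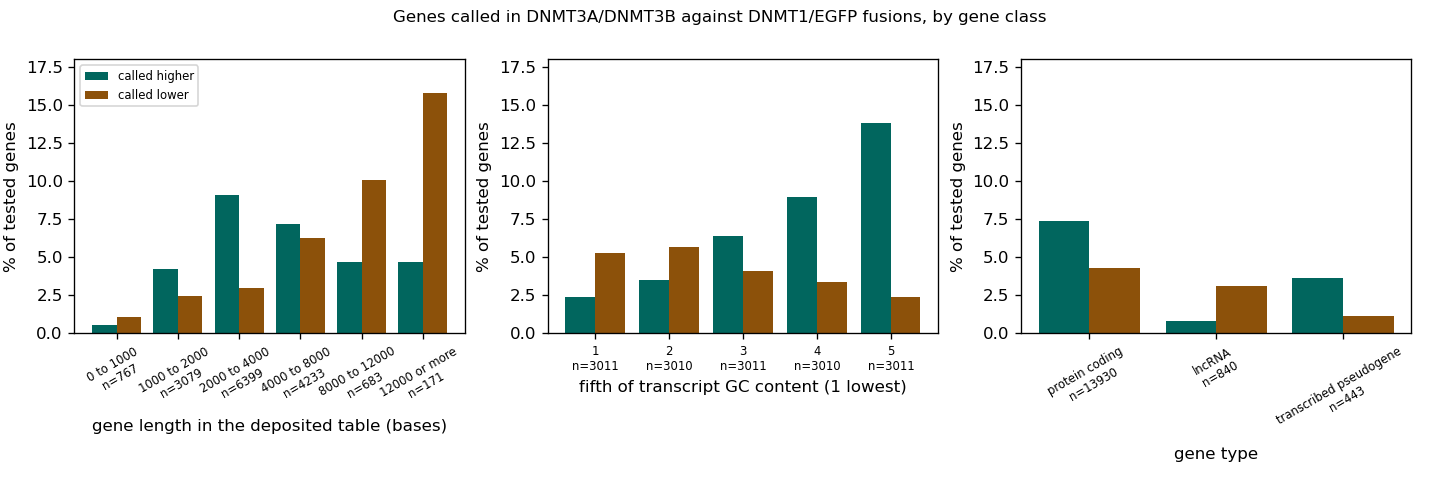
Percentage of tested genes called higher (green) and lower (brown) by gene length, by 5 equal groups of transcript GC content and by gene type, with the number of tested genes under each pair of bars. The share called lower rises with length to 15.8% in genes of at least 12000 bases, and the share called higher rises with GC content from 2.39% to 13.8%.

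Both transcript length and base composition moved with the direction of change. Of 171 genes of at least 12000 bases 27 (15.8%) fell and 8 (4.68%) rose, and of 683 genes of 8000 to 12000 bases 69 (10.1%) fell and 32 (4.69%) rose. Genes of 2000 to 4000 bases had the reverse balance, with 580 (9.06%) higher and 192 (3.0%) lower of 6399. From the lowest to the highest of 5 equal groups by transcript GC content the share called higher went from 2.39% to 13.8% and the share called lower from 5.28% to 2.36%. With a per-library offset for GC content and length 1422 genes were called higher and 967 lower. The parts of base composition and of library preparation in these trends were not tested.

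The pUC19 library gave a second reference that the fit did not use. As a transfection control without a named fusion or guide, it differed from the fusion groups in more than the fused domain. The part of the fusion, the guides and the BFP sort in its position was not tested. Among the 1058 genes called higher, pUC19 was nearer to the DNMT1 and EGFP mean in 837 (79.1%) and below all 4 fusion libraries in 363 (34.3%). Among the 636 called lower, it was nearer to the DNMT1 and EGFP mean in 470 (73.9%) and above all 4 in 243 (38.2%). Among the 13638 genes not called, it was nearer to DNMT1 and EGFP in 57.3%. In these uncalled genes pUC19 was below all 4 in 23.4% and above all 4 in 34.0%, the latter near the share of genes called lower. With 1 pUC19 library these shares have no replicate check. The pUC19 and EGFP libraries also shared a lower transcript coverage (41.7% and 42.1% against 46.8% to 47.2%). The part of coverage in these shares was not tested. The lists differed in this: pUC19 was nearer to DNMT1 and EGFP for 27 of 38 extracellular matrix genes and 19 of 24 fatty acid genes, but for 10 of 25 amino acid enzymes and 12 of 25 ER genes.

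Promoters that hold a guide's seed were counted among the called genes and among all genes. The search was for the 8 capital bases of each guide followed by NGG (GAAGCACGNGG, AGAGGGAGNGG, CCCGTCCCNGG, CAGGACCGNGG and CCCTGGCCNGG), on both strands, in 300-base RefSeq promoter sequences found for 12016 of the 15332 tested genes. A match to any of the 5 occurred in 284 of all promoters (2.36%), in 19 of 855 of genes called higher (2.22%) and in 15 of 511 of genes called lower (2.94%). The seed of uPA-T2, which is rich in A and G, was the most frequent, in 124 promoters (1.03%), 8 of them of genes called higher and 7 of genes called lower. All 4 libraries shared these guides, and a match describes the sequence only.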

How the data were processed

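RNA was measured in 5 HEK293T libraries, 1 per plasmid group, of which 4 entered the comparison. The authors selected poly(A) RNA, sequenced it, aligned reads to RefSeq RNA of hg19 (GRCh37) and kept unique hits. The deposited read counts are whole numbers per gene without normalization. The deposited TPM values divide these counts by gene length and scale each library to the same sum. The deposited coverage percent was read as the part of a transcript covered. Genes without a row were set to 0.

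Counts were compared with edgeR 4.0.16 (R 4.3.3): TMM scaling, filterByExpr, and the quasi-likelihood test of DNMT3A and DNMT3B against DNMT1 and EGFP, with Benjamini-Hochberg adjusted p under 0.05. On simulated counts for this comparison (15332 genes), 100 of 100 genes changed 4-fold and 100 of 100 changed 2-fold were recovered, with 12 false calls. The simulation gave all genes the same dispersion, drew the 2 libraries of a side as replicates and changed no gene of the lowest levels. The constructs here are not replicates, so these rates do not carry over to the real counts. DESeq2 1.42.0, other scalings, filters, GC and length offsets, and leaving out each library were the alternatives. Totals were 26250000 to 36140000 reads. Counting error only is covered by the 3-read floor.

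Groups came from sample titles. The members and gene lists were chosen with earlier results of these data known. Named genes were the 10 largest called changes per direction with a mean of at least 5 TPM and no overlap, up to 3 called members per list and direction with the smallest p, and the DNMT and PLAU rows; further called list members were named after their values were seen. Guides were matched to GRCh37, and annotation was taken from GENCODE v44 lifted to it. Promoters came from RefSeq (GRCh38.p14). A few called list members are not reported here.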

Additional observations from a re-analysis of the deposited data

How the results depend on the processing

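No paired analysis was possible because each construct has 1 library and replicate numbers pair nothing. The cause of each change given here was not tested. Without a filter on low counts 1052 genes were called, 344 of them lower, and with the GC and length offset 967 were lower. Leaving out each library in turn gave 18 to 3850 called genes, 17 to 2227 higher, 1 to 1623 lower and 18 to 680 called with at least a 2-fold change. The lowest counts came without DNMT3A and the highest without EGFP, except for the 2-fold count, which was highest without DNMT1. DESeq2 called 2146 genes and a minimum mean of 50 reads 1809. The median of the cytosolic heat shock chaperones turned to 0.24 without DNMT1, with a range of -0.44 to 0.24 over the libraries left out. With DNMT rows removed 1711 genes were called. Restricting the fit to genes with a GC value, an alternative chosen after seeing the data, gave 1708. Without a filter the lists also had fewer called members, with 6 replication and S phase genes higher in place of 12, 1 Polycomb gene in place of 5, 4 HOX genes in place of 8, and 2 amino acid transporters and 2 cholesterol genes lower in place of 5 and 4. Levels under about 3 reads per library were not resolved. No named gene that was called changed its direction under any of these alternatives.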
